A study of Mus musculus with 6 samples.

Results

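The genes described are 44 genes of DNA replication and S phase, the part of the cell cycle in which the genome is copied. They were chosen by name, as genes of the replication machinery and known targets of E2F transcription factors, and not by a threshold on the measured values. Earlier results of these data were known when the genes were chosen. They make up 44 of the 52636 genes in the deposited count table, and all 44 passed the filter on low counts that left 13901 genes tested. Messenger RNA was sequenced from endothelial cells isolated from mouse brain and grown in culture. There were 3 libraries of genotype Wild Type Control (controls) and 3 of genotype Erg and Fli1 double knockout (knockouts), the deleted genes being those of 2 ETS transcription factors of endothelial cells. Cultures of both groups had received 4-OHT (4-hydroxytamoxifen) to induce the deletion, so the drug was common to all 6 libraries, and live cells were sorted for CD31 and VE-cadherin and against CD45. The labels do not give the Cre driver, the age of the animals, or which libraries came from separate cultures or animals. The p-values therefore set the difference between groups only against the spread of these libraries, and some of that spread may be technical. Each group held libraries of both sexes, as given below, so that more than 1 animal stood behind each.

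Replication is prepared in G1, when the origin recognition complex, CDC6 and CDT1 load the MCM2-7 helicase onto origins. In S phase CDC45, the GINS complex and MCM10 turn the loaded helicase on, polymerases alpha, delta and epsilon copy the strands, and the clamp PCNA with its loader RFC holds polymerases on the template. The genes of these proteins, together with those for nucleotide supply, are transcribed under the control of E2F factors, which the retinoblastoma protein holds in check until cyclin-dependent kinases release them. Their transcripts are therefore widely used to describe how much of a cell population is cycling.

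The 6 libraries held 17274639 to 19410458 gene counts, and every level is in CPM, counts relative to the scaled library size. Erg stood at 656, 223 and 609.6 CPM in the controls and 70.2, 88.3 and 109 CPM in the knockouts, and it fell (a log2 fold change of -2.48 with SE 0.44 and an edgeR adjusted p of 0.0137), a call lost without control 3 or any 1 knockout (adjusted p by edgeR up to 0.0691). Fli1 stood at 82.9, 64.2 and 92.1 CPM in the controls and 57.04, 68.5 and 66.7 CPM in the knockouts and did not pass (a log2 fold change of -0.32 with SE 0.15 and an edgeR adjusted p of 0.181), whereas without control 2 it fell (log2 fold change -0.48, edgeR adjusted p = 0.00346). Counts cover whole genes, so transcripts that lack deleted exons are counted too. Control 2 stood apart. Of 10 fibroblast markers the sum was 422, 13210 and 1157 CPM in controls 1, 2 and 3 and 1988, 2867 and 1646 CPM in knockouts 1, 2 and 3, of 10 pericyte and smooth muscle markers 476, 4296 and 586 CPM in controls 1, 2 and 3 and 966, 1574 and 782 CPM in knockouts 1, 2 and 3, and of 10 endothelial markers, Pecam1 (CD31) and Cdh5 (VE-cadherin) among them, 15670, 6558 and 15680 CPM in controls 1, 2 and 3 and 3907, 3786 and 4631 CPM in knockouts 1, 2 and 3. Counts are therefore also given without control 2. Y-linked Ddx3y and the X-inactivation transcript Xist showed controls 1 and 3 and knockout 1 to be male and control 2 and knockouts 2 and 3 to be female (431 to 611 CPM of Xist, against at most 5.32 CPM).

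Transcripts of the replication genes were higher in the knockout cells, and each of the 8 role groups held genes that rose. Of the 44 genes, 32 rose and 0 fell (edgeR, adjusted p under 0.05), where 13.1% of all tested genes rose and 11.7% fell. An unadjusted p under 0.05 was found for 34 higher and 0 lower genes, and DESeq2 and limma voom also called 0 lower, with 32 and 33 higher. The median log2 fold change was 0.91 over the 44 genes and 0.003 over all genes tested, with a range over the 44 from -0.07 for Fen1 to 1.40 for E2f8. In 35 of the 44 every knockout library lay above every control, as it did in 25.0% of all tested genes. More cells in S phase and more of these transcripts per cell cannot be told apart in RNA of a whole sample.

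Without control 2, 34 genes rose and 0 fell, among them all of the 32, and the median log2 fold change was 0.83. The counts by role given below were the same without control 2 except for the clamp and E2F groups. More genes of the whole table also passed there, 25.5% higher and 24.8% lower. Control 2 was the only female control, so fits without it set male controls against knockouts of both sexes. Controls 1 and 3 were also more alike (correlation of log2 CPM 0.9951) than either was to control 2 (0.9306 and 0.942). Leaving out any other library reduced the number that rose to between 17 (without knockout 2) and 20 (without control 1, control 3 or knockout 1), with 19 without knockout 3. The log2 fold changes of the 32 genes stayed above 0 in all 14 alternatives. Calls held in all 14 for 15 genes, namely Orc6, Mcm4, Mcm7, Cdc45, Mcm10, Pola1, Prim1, Pole, Lig1, Tk1, E2f7, Chaf1b, Uhrf1, Clspn and Brca1. The 12 genes that did not pass were Mcm3, Mcm6, Gins1, Gins3, Pold1, Pcna, Rfc3, Rpa2, Fen1, E2f2, Ccne1 and Ccne2. With library size as the only scaling, the split over all genes moved from 1816 higher and 1621 lower to 2501 higher and 1268 lower, and that over the 44 to 33 higher and 0 lower.

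**Figure D1:**
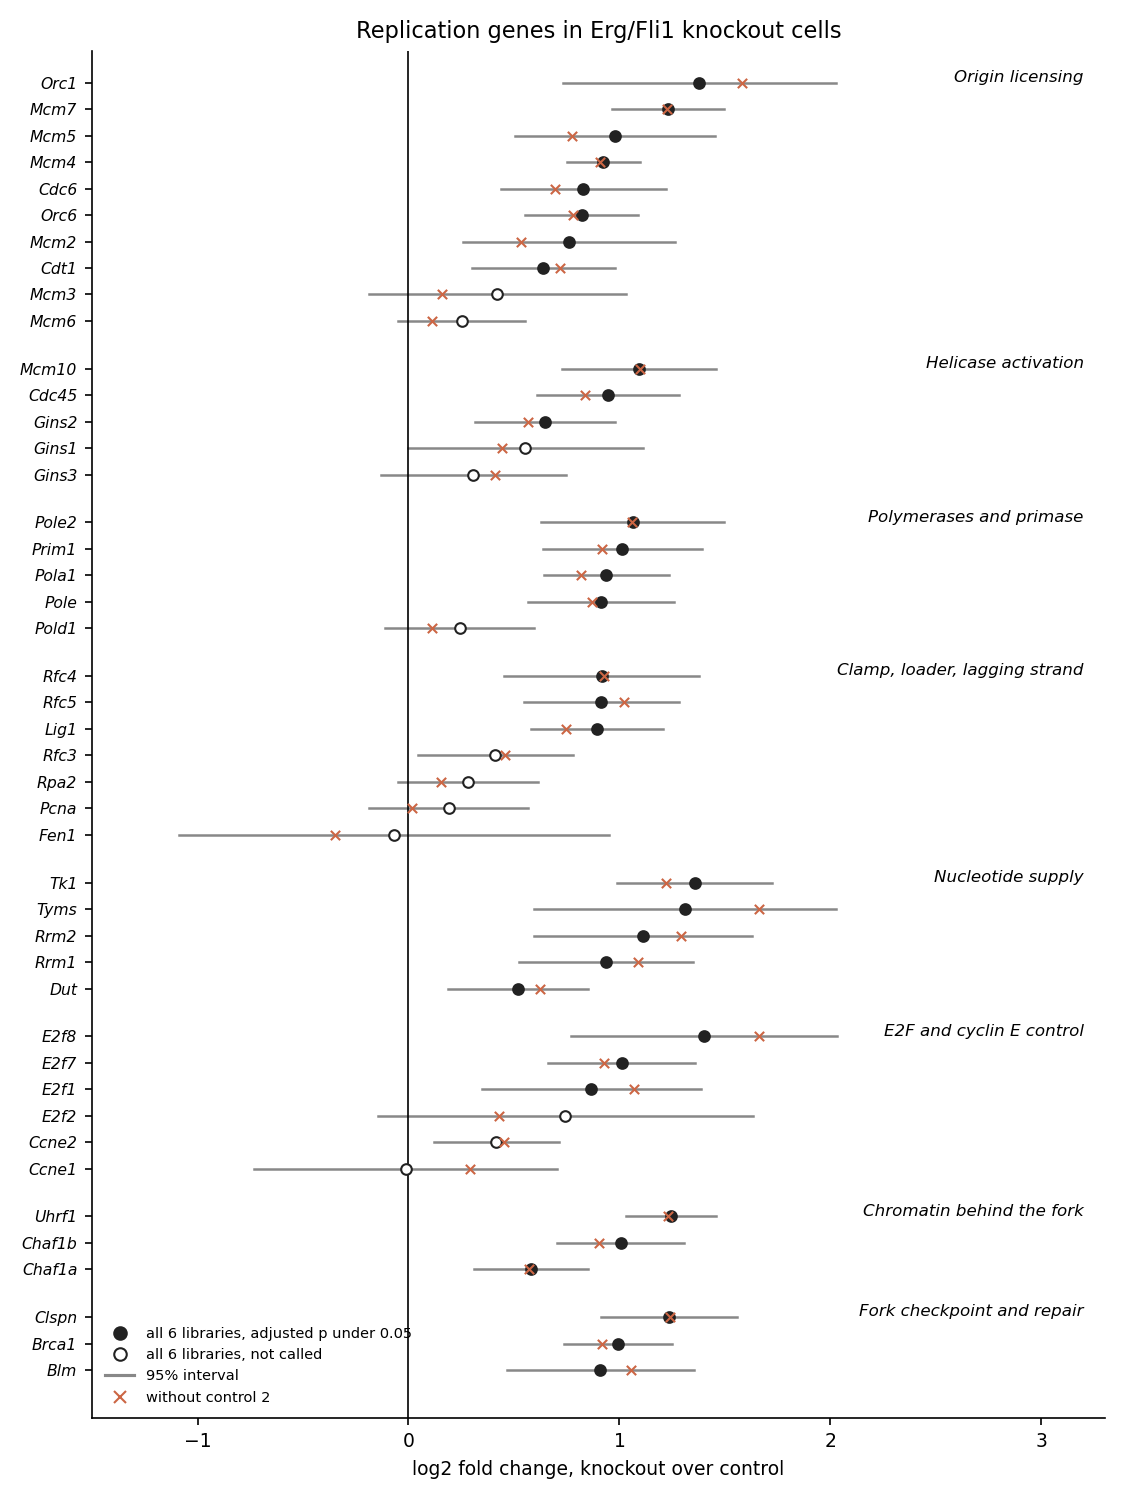
Log2 fold change (knockout over control, horizontal axis) of each of the 44 genes, grouped by role; circles are estimates from all 6 libraries (filled where the edgeR adjusted p was under 0.05), lines 95% intervals and crosses estimates without control 2. Filled circles lie in every role group, and the open circles nearest 0 are Fen1 and Ccne1.

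The summed level was higher in knockouts of each sex, with a single male knockout and a single female control. Summed over the 44 genes, the level was 720.3, 717 and 766 CPM in controls 1, 2 and 3 and 1122, 1359 and 1245 CPM in knockouts 1, 2 and 3. The male libraries thus held 720.3 and 766 CPM in controls against 1122 CPM in a knockout, and the female ones 717 CPM in a control against 1359 and 1245 CPM in knockouts. With a term for sex in the fit, 29 of the 32 calls held (edgeR). The female control was control 2, which stood apart in its cell type markers. Its sex and its other differences cannot be told apart. The 3 controls had almost the same sum, although control 2 reached it with another mix of genes. Nucleotide supply made up 22.7% of the sum in control 2 against 15.87% and 15.96% in controls 1 and 3, and 21.1% to 22.2% in knockouts. Origin licensing made up 33.1% in control 2, 40.4% and 40.5% in controls 1 and 3, and 36.2% to 36.5% in knockouts. Among the controls, control 2 had the lowest value for 20 genes, the middle value for 6 and the highest for 18. It lay below every knockout for 42 genes and above every knockout for 1, Ccne1.

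**Figure D2:**
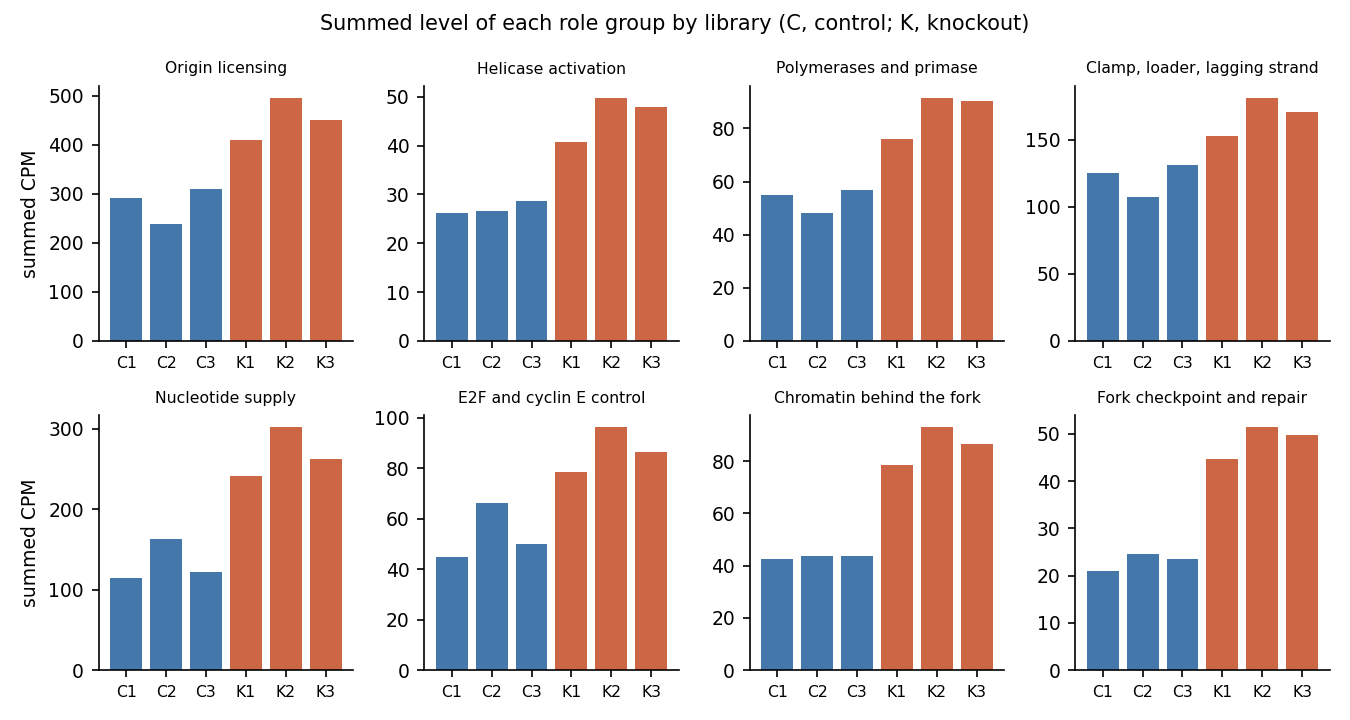
Summed CPM (vertical axes, from 0) of the genes of each role group in each library; C1 to C3 are controls and K1 to K3 knockouts. In all 8 panels each knockout bar is above each control bar, and control 2 is the highest control for nucleotide supply (163 CPM) and the lowest for origin licensing (238 CPM).

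Promoters of the replication genes were inspected for the motifs of the factors concerned, since Erg and Fli1 bind ETS sites and E2F factors bind their own. RefSeq promoter windows (GRCm38.p6, 250 bases before to 50 after a transcript start) were found for 39 of the 44 genes, with several windows for 5. An E2F motif (TTTCCCGC, TTTGGCGC, TTTGCCGC or TTTCGCGC, either strand) occurred in 17 of 39 (43.6%), against 4.70% of 10309 tested genes and 2.61% of all 27025 genes with a window. Since the 44 genes were chosen partly as known E2F targets, a high share of E2F motifs follows from the choice. The motif occurred in 11 of the 29 genes that rose (37.9%) and in 6 of the 10 that did not pass. An ETS motif (CCGGAAGT, CCGGAAAT or CCGGAAGC, either strand) occurred in 9 of 39 (23.1%), against 16.2% of tested genes and 7.83% of all genes with a window, in 6 of the 29 that rose and in 3 of the 10 that did not pass. CCAAT occurred in 25 of 39 (64.1%), against 42.9% and 41.1%, in 18 of the 29 and 7 of the 10. The CHR letters TTTGAA or TTCGAA, either strand, occurred in 8 of 39 (20.5%), between the 16.2% of tested genes and the 21.7% of all genes with a window, in 4 of the 29 and 4 of the 10. None of the strings searched contains another. A match is a run of letters and not a measured binding site. Only these strings were searched, so the lack of a match does not show the lack of a site.

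The promoter of the gene with the largest fold change in each role group is shown from 200 bases before to 30 after the RefSeq start, on the gene's strand, 5′ to 3′, with E2F and ETS matches in capitals. Their values are given in the groups that follow.
Orc1: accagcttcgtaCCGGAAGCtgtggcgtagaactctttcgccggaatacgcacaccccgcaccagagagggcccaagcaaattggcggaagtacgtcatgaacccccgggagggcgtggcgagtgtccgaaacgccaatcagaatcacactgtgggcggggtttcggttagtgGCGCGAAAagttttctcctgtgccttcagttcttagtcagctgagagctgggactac
Mcm10: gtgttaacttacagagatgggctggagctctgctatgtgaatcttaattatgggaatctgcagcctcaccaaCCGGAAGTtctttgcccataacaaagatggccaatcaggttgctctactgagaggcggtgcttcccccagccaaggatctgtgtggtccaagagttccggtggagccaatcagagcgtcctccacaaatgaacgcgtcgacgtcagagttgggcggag
Pole2: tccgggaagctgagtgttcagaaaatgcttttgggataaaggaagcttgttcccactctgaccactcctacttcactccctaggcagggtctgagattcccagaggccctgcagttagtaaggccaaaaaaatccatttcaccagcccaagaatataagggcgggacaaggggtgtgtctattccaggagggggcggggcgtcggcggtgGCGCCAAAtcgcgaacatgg
Rfc4: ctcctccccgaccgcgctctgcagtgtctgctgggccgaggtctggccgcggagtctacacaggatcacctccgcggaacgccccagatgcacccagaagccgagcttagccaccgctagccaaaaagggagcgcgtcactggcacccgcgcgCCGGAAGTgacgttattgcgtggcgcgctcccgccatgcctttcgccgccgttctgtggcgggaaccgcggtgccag
Tk1: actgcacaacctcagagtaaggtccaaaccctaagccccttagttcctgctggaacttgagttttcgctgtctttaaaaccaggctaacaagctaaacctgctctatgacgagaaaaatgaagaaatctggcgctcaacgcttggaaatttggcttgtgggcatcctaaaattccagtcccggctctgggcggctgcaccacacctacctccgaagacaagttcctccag
E2f8: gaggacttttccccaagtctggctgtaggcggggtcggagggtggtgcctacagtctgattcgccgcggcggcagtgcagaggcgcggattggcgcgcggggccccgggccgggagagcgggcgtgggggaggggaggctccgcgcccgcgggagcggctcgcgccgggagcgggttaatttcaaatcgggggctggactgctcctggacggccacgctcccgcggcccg
Uhrf1: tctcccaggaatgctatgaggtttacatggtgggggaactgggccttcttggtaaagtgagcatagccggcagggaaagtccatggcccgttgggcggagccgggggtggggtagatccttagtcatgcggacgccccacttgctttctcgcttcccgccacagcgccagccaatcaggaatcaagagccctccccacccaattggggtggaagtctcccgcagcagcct
Clspn: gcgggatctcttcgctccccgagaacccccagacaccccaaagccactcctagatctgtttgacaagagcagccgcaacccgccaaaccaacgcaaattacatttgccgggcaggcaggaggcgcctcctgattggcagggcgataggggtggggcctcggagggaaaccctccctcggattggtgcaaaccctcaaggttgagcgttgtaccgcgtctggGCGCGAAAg
The windows lie at chr4:108579254-108579483, plus strand (Orc1), chr2:5012762-5012991, minus strand (Mcm10), chr12:69228161-69228390, minus strand (Pole2), chr16:23127701-23127930, minus strand (Rfc4), chr11:117825985-117826214, minus strand (Tk1), chr7:48881567-48881796, minus strand (E2f8), chr17:56303137-56303366, plus strand (Uhrf1) and chr4:126556780-126557009, plus strand (Clspn). Orc1 holds an E2F match that begins at -27 on the gene's strand and an ETS match at -188, Pole2 and Clspn E2F matches at 11 and 22, and Mcm10 and Rfc4 ETS matches at -128 and -47, counted with the start as 1 and the base before it as -1. In the shown windows of Tk1, E2f8 and Uhrf1 neither motif was found, and a second window of Uhrf1 holds an E2F match at -185.

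Of the 6 E2F and cyclin E genes, which control this programme, 3 rose and 0 fell. E2f1 and the repressors E2f7 and E2f8 rose, whereas E2f2 and both cyclin E genes did not pass. Their median log2 fold change was 0.81. Without control 2, 4 rose, and without control 3 or any 1 knockout only 1, E2f7.

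E2F1 and E2F2 activate transcription of S-phase genes. E2f1 stood at 16.9, 28.04 and 19.7 CPM in controls 1, 2 and 3 and 35.8, 45.1 and 36.98 CPM in knockouts 1, 2 and 3. Each knockout was above each control, and control 2 was the highest control. E2f1 rose (a log2 fold change of 0.87 with SE 0.21 and an edgeR adjusted p of 0.0335), with a log2 fold change of 1.07 without control 2. Its call was lost without any single library other than control 2 (adjusted p by edgeR 0.0756 to 0.116, log2 fold change 0.71 to 0.93). E2f2 stood at 3.11, 1.69 and 4.06 CPM in controls 1, 2 and 3 and 3.75, 5.19 and 5.904 CPM in knockouts 1, 2 and 3. Control 3 was above knockout 1, so the groups overlapped, and E2f2 did not pass (a log2 fold change of 0.74 with SE 0.36 and an edgeR adjusted p of 0.187, 95% interval -0.15 to 1.64).

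E2F7 and E2F8 are atypical members of the family that repress E2F targets late in S phase. E2f8 (ENSMUSG00000046179) had the largest fold change of the 44 genes with all 6 libraries, but not in every alternative. Tyms was above it without control 2 (1.662 against 1.66 on the log2 scale), and Orc1 without knockout 2 (1.52 against 1.45). Tk1 was above it with a term for sex (1.36 against 1.34) and without control 1 (1.41 against 1.205). The same held without control 3 (1.38 against 1.34) and without knockout 1 (1.45 against 1.37). E2f8 stood at 2.74, 5.23 and 3.51 CPM in controls 1, 2 and 3 and 10.6, 9.43 and 10.3 CPM in knockouts 1, 2 and 3. Its groups did not overlap, and control 2 was the highest control. E2f8 rose (a log2 fold change of 1.40 with SE 0.26 and an edgeR adjusted p of 0.0145), with a log2 fold change of 1.66 without control 2, and its call was lost without control 3, knockout 1, knockout 2 or knockout 3 (adjusted p by edgeR 0.0561 to 0.0617, log2 fold change 1.34 to 1.45). Exons of the opposite-strand gene Gm2788 cover 11.2% of those of E2f8; Gm2788 itself had under 0.3 CPM in the mean of either group and was not tested. E2f7 stood at 5.16, 4.52 and 4.88 CPM in controls 1, 2 and 3 and 8.84, 11.1 and 9.47 CPM in knockouts 1, 2 and 3. Knockout values were all above control values, and the controls lay close together. E2f7 rose (a log2 fold change of 1.01 with SE 0.14 and an edgeR adjusted p of 0.00685) in every alternative. Per kilobase of exon, the ratio of E2f8 to E2f1 was 0.0939, 0.108 and 0.103 in controls 1, 2 and 3 and 0.171, 0.121 and 0.161 in knockouts 1, 2 and 3, higher in each knockout than in each control. That of Ccne1 to Ccne2, at 1.88, 2.94 and 1.88 in controls 1, 2 and 3 and 1.35, 1.79 and 1.88 in knockouts 1, 2 and 3, overlapped between the groups.

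Cyclins E1 and E2 activate CDK2 at the entry into S phase. Ccne1 stood at 9.96, 18.4 and 10.5 CPM in controls 1, 2 and 3 and 9.92, 14.6 and 13.98 CPM in knockouts 1, 2 and 3. Control 2 was the highest of the 6 libraries, and leaving it out moved the log2 fold change from -0.01 (SE 0.29) to 0.29, neither of which passed (edgeR adjusted p = 0.977 and 0.215). Ccne2 stood at 6.95, 8.22 and 7.34 CPM in controls 1, 2 and 3 and 9.61, 10.7 and 9.75 CPM in knockouts 1, 2 and 3. All knockouts lay above all controls, but Ccne2 did not pass (a log2 fold change of 0.42 with SE 0.12 and an edgeR adjusted p of 0.0548). It passed without control 2, with library size as the only scaling and in limma voom (adjusted p = 0.0134, 0.0291 and 0.0452, the first 2 by edgeR). Exons of Ints8 on the opposite strand cover 17.4% of those of Ccne2, and Ints8 did not pass (log2 fold change 0.23).

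**Figure D3:**
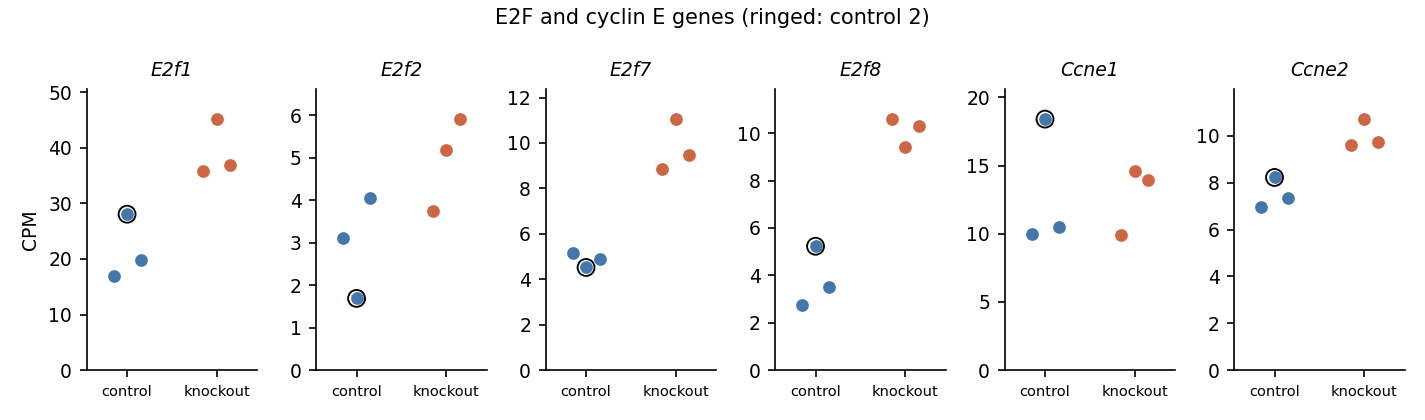
CPM in each library (points) of the 4 E2F genes and 2 cyclin E genes, controls at left and knockouts at right of each panel, each vertical axis starting at 0; the ring marks control 2. For E2f1, E2f7, E2f8 and Ccne2 the groups do not overlap, and for Ccne1 the ringed control is the highest point.

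Origin licensing genes rose in 8 of 10 cases, with a median log2 fold change of 0.82, and among them were 4 of the 6 subunit genes of the MCM2-7 helicase. Orc1, Orc6, Cdc6, Cdt1, Mcm2, Mcm4, Mcm5 and Mcm7 rose, while Mcm3 and Mcm6 did not pass. The same number rose without control 2, and 3 to 5 without any other single library.

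ORC1 is the largest subunit of the origin recognition complex. Orc1 (ENSMUSG00000028587, chr4:108579423-108614833, plus strand, GRCm38) stood at 1.42, 2.18 and 1.43 CPM in controls 1, 2 and 3 and 4.68, 3.46 and 4.96 CPM in knockouts 1, 2 and 3. These levels rest on few reads, with counts of 27, 40 and 26 in the controls and 91, 62 and 89 in the knockouts, and the groups did not overlap. Orc1 rose (a log2 fold change of 1.38 with SE 0.26 and an edgeR adjusted p of 0.0165), and its call was lost without control 1, control 3, knockout 1 or knockout 3 (adjusted p by edgeR 0.06098 to 0.0693, log2 fold change 1.27 to 1.33). Exons of the opposite-strand gene Gm12743 cover 10.8% of those of Orc1, and Gm12743 stood at 0.827 CPM in the controls and 0.757 CPM in the knockouts (means). Orc6, another subunit, rose from 20.6 ± 0.5798 to 36.3 ± 4.78 CPM (a log2 fold change of 0.82 with SE 0.11 and an edgeR adjusted p of 0.00611). The helicase loaders also rose, Cdc6 from 5.29 ± 0.782 to 9.397 ± 0.825 CPM (log2 fold change 0.83) and Cdt1 from 8.76 ± 1.25 to 13.6 ± 0.843 CPM (log2 fold change 0.64). The Cdc6 call was lost without control 1, knockout 1, knockout 2 or knockout 3 (adjusted p by edgeR 0.0565 to 0.0741, log2 fold change 0.76 to 0.88). For Cdt1 it was lost without any single library other than control 2 (adjusted p by edgeR 0.0678 to 0.0915, log2 fold change 0.54 to 0.69). With a block for the replicate number the calls of Orc1, Cdc6 and Cdt1 were also lost (edgeR adjusted p = 0.0711, 0.0675 and 0.0604).

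The 6 MCM subunits form a ring with 1 copy of each. Mcm6, the subunit gene with the highest CPM, stood at 80.8, 65.4 and 85.2 CPM in controls 1, 2 and 3 and 82.7, 98.6 and 94.1 CPM in knockouts 1, 2 and 3. Control 3 was above knockout 1, and Mcm6 did not pass (a log2 fold change of 0.25 with SE 0.12 and an edgeR adjusted p of 0.188, 95% interval -0.05 to 0.55). Mcm3 did not pass either, at 53.3, 29.9 and 53 CPM in controls 1, 2 and 3 and 52, 68.9 and 61.5 CPM in knockouts 1, 2 and 3. Its knockouts overlapped controls 1 and 3 while control 2 lay lower (log2 fold change 0.42, 95% interval -0.19 to 1.03, and 0.16 without control 2). Mcm7 rose furthest, from 26.97 ± 1.599 to 63.2 ± 7.46 CPM (a log2 fold change of 1.23 with SE 0.11 and an edgeR adjusted p of 0.00219). Mcm4 rose from 30.04 ± 1.34 to 56.99 ± 2.44 CPM (a log2 fold change of 0.92 with SE 0.07 and an edgeR adjusted p of 0.00163). Mcm5 rose from 25.8 ± 5.72 to 50.8 ± 6.33 CPM (log2 fold change 0.98) and Mcm2 from 38.1 ± 9.71 to 64.6 ± 5.87 CPM (log2 fold change 0.76). Control 2 was the lowest control for both, and leaving it out gave log2 fold changes of 0.77 and 0.53. The Mcm5 call was lost without control 1, knockout 2 or knockout 3 (adjusted p by edgeR 0.0578 to 0.0751, log2 fold change 0.90 to 1.02). For Mcm2 it was lost without any single library other than control 2 (adjusted p by edgeR 0.0673 to 0.143, log2 fold change 0.69 to 0.90). The Mcm2 call was also lost with a term for sex (edgeR adjusted p = 0.0532) and with a block for the replicate number (edgeR adjusted p = 0.0992). With that block the Mcm5 call was lost too (edgeR adjusted p = 0.0617).

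Per kilobase of exon, Mcm6 and Mcm3 were the most abundant subunits in controls 1 and 3 and Mcm7 the least, at 17.3, 14.2 and 5.68 CPM per kilobase in control 1. The length is that of all annotated exons of a gene merged, 6956 bases for Mcm2, 4426 for Mcm7 and 3589 for Mcm4. The order of genes on this scale therefore depends on the annotation. In control 2 Mcm4, at 8.56, was above Mcm3, at 7.98, and Mcm2 was the least, at 3.91. In knockout 1 Mcm7 had 12.8 CPM per kilobase and Mcm6 17.7. The ratio of Mcm7 to Mcm6 was 0.328, 0.452 and 0.343 in controls 1, 2 and 3 and 0.721, 0.761 and 0.692 in knockouts 1, 2 and 3. It was higher in each knockout than in each control. The ratio of Mcm4 to Mcm3 did not separate the groups, at 0.559, 1.07 and 0.6097 in controls 1, 2 and 3 and 1.099, 0.903 and 0.964 in knockouts 1, 2 and 3, with control 2 among the knockouts. Of the 50-base transcript sequences of Mcm7, 18.1% also occur in other annotated transcripts, chiefly those of Gm5487, and opposite-strand exons cover 8.70% of its exons, so reads could have been lost or shared there.

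**Figure D4:**
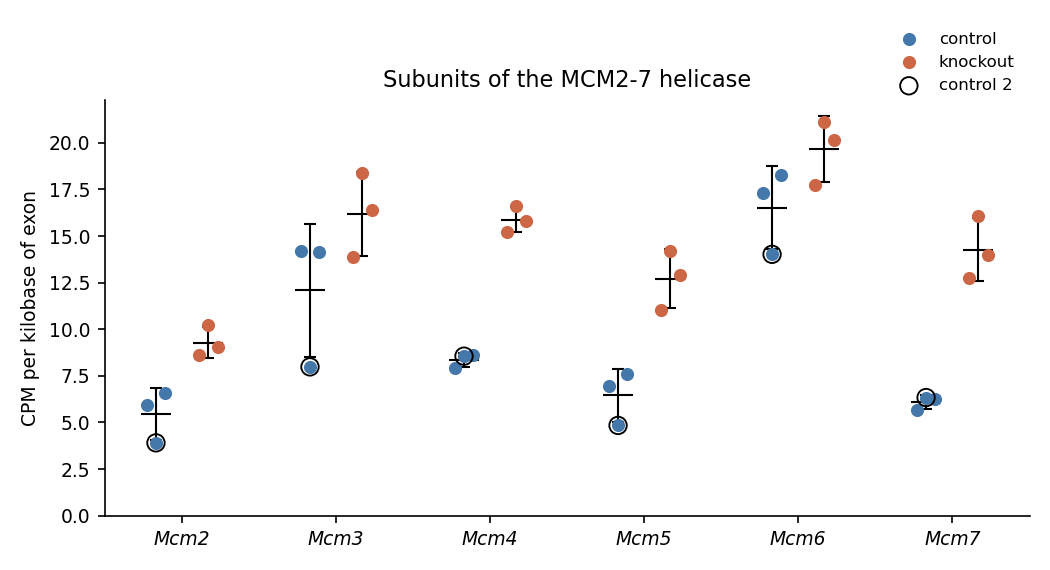
CPM per kilobase of exon of the 6 MCM2-7 subunit genes in each library (points), with the mean and SD of each group; a ring marks control 2. Mcm4 and Mcm7 are clearly separated between groups, and Mcm3 and Mcm6 overlap.

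Of the genes that activate the helicase, Cdc45, Gins2 and Mcm10 rose and Gins1 and Gins3 did not pass, with a median log2 fold change of 0.65. CDC45 and the GINS complex join the MCM ring to make the active helicase. Mcm10, which helps to open it, stood at 4.69, 5.01 and 4.604 CPM in controls 1, 2 and 3 and 8.58, 10.8 and 11.1 CPM in knockouts 1, 2 and 3. The controls lay close together and every knockout above them. Mcm10 rose (a log2 fold change of 1.09 with SE 0.15 and an edgeR adjusted p of 0.00635) in every alternative. Gins2 stood at 7.903, 7.73 and 9.26 CPM in controls 1, 2 and 3 and 11.97, 14.6 and 12.4 CPM in knockouts 1, 2 and 3, with no overlap. Gins2 rose (a log2 fold change of 0.65 with SE 0.13 and an edgeR adjusted p of 0.0215), but 67.3% of its exonic bases lie in exons of Gse1 on the opposite strand, and Gse1 did not pass (log2 fold change 0.29). The Gins2 call was lost without control 1, knockout 1, knockout 2 or knockout 3 (adjusted p by edgeR 0.0604 to 0.08305, log2 fold change 0.56 to 0.71). It was also lost with a term for sex (edgeR adjusted p = 0.0517) and with a block for the replicate number (edgeR adjusted p = 0.0748). Cdc45 rose from 7.23 ± 0.711 to 13.9 ± 1.55 CPM (a log2 fold change of 0.95 with SE 0.14 and an edgeR adjusted p of 0.00749). Gins1 had 2.25 ± 0.226 in controls and 3.304 ± 0.768 CPM in knockouts and Gins3 4.61 ± 0.747 and 5.71 ± 0.591 CPM, with log2 fold changes of 0.55 (95% interval -0.0037 to 1.11) and 0.31 (95% interval -0.13 to 0.75).

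Polymerase genes rose in 4 of 5 cases, the exception being Pold1, and the median log2 fold change was 0.94. Pole2, the second subunit of the leading-strand polymerase epsilon, stood at 1.897, 2.29 and 2.41 CPM in controls 1, 2 and 3 and 4.93, 4.74 and 4.12 CPM in knockouts 1, 2 and 3. Knockouts and controls did not overlap, and Pole2 rose (a log2 fold change of 1.06 with SE 0.18 and an edgeR adjusted p of 0.0109). Its call was lost without knockout 1 or knockout 2 (adjusted p by edgeR 0.0542 to 0.05498, log2 fold change 1.01 to 1.04). It was also lost with a block for the replicate number (edgeR adjusted p = 0.0574). Pold1, the catalytic subunit of polymerase delta, stood at 22.9, 19.3 and 25.5 CPM in controls 1, 2 and 3 and 23.6, 26.3 and 30.4 CPM in knockouts 1, 2 and 3. Control 3 lay above knockout 1, and Pold1 did not pass (a log2 fold change of 0.24 with SE 0.14 and an edgeR adjusted p of 0.262, 95% interval -0.11 to 0.60). Pole, the catalytic subunit of epsilon, rose from 12.4 ± 0.356 to 23.4 ± 3.96 CPM (a log2 fold change of 0.91 with SE 0.14 and an edgeR adjusted p of 0.00898). The primase gene Prim1 rose from 5.36 ± 0.409 to 10.8 ± 1.53 CPM (a log2 fold change of 1.01 with SE 0.15 and an edgeR adjusted p of 0.00853). Pola1, the X-linked gene of the polymerase that extends primers, rose from 10.7 ± 1.38 to 20.4 ± 1.01 CPM (a log2 fold change of 0.94 with SE 0.12 and an edgeR adjusted p of 0.00562). These last 3 calls held in every alternative, the term for sex included.

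The clamp, clamp loader and lagging-strand genes were split, with 3 of 7 rising and a median log2 fold change of 0.41. Lig1, which joins the fragments of the lagging strand, and the loader subunits Rfc4 and Rfc5 rose, while Pcna, Rfc3, Rpa2 and Fen1 did not pass. Without control 2, 4 rose, and without knockout 2 only Lig1.

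Pcna encodes the sliding clamp and had the highest level per kilobase of the 44 genes in every library, from 18.7 to 29.1 CPM per kilobase. It stood at 59.3, 44.9 and 63.8 CPM in controls 1, 2 and 3 and 56.8, 69.8 and 64.9 CPM in knockouts 1, 2 and 3. Controls 1 and 3 lay among the knockouts and control 2 below them. The log2 fold change of Pcna was 0.19 (SE 0.15, edgeR adjusted p = 0.407, 95% interval -0.19 to 0.57), and 0.02 without control 2. Of its 50-base transcript sequences 19.1% also occur in the pseudogene Pcna-ps2. Fen1, a nuclease that trims lagging-strand fragments, stood at 0.948, 0.599 and 1.31 CPM in controls 1, 2 and 3 and 0.617, 1.28 and 0.835 CPM in knockouts 1, 2 and 3. The values overlapped throughout, at counts of 18, 11 and 24 in controls and 12, 23 and 15 in knockouts. Its log2 fold change was -0.07 (95% interval -1.09 to 0.95). Annotated exons of Tmem258 and Gm10143 on the opposite strand cover 84.2% of those of Fen1, so its counts are uncertain.

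Rfc4 stood at 3.74, 4.68 and 4.82 CPM in controls 1, 2 and 3 and 8.22, 9.76 and 7.02 CPM in knockouts 1, 2 and 3. All knockouts were above all controls, and Rfc4 rose (a log2 fold change of 0.92 with SE 0.19 and an edgeR adjusted p of 0.0203), a call lost without control 1, control 3, knockout 1 or knockout 2 (adjusted p by edgeR 0.0562 to 0.0774, log2 fold change 0.79 to 0.97). With a block for the replicate number the Rfc4 call was lost too (edgeR adjusted p = 0.0624). The exons of Eif4a2 on the opposite strand cover 12.7% of its exons, and Eif4a2 did not pass (log2 fold change -0.14). Rfc5 rose from 10.3 ± 1.88 to 19.4 ± 0.5502 CPM (a log2 fold change of 0.91 with SE 0.15 and an edgeR adjusted p of 0.0104), a call lost without knockout 2 (adjusted p by edgeR 0.0528, log2 fold change 0.90); Wsb2 covers 10.7% of its exons from the opposite strand and did not pass (log2 fold change -0.27). Lig1 rose from 21.9 ± 3.25 to 40.7 ± 2.45 CPM (a log2 fold change of 0.89 with SE 0.13 and an edgeR adjusted p of 0.00722). Rfc3 had 10.4 ± 1.04 in controls and 13.9 ± 2.02 CPM in knockouts, with no overlap between the groups (log2 fold change 0.41, edgeR adjusted p = 0.0989), and it passed without control 2 (edgeR adjusted p = 0.0378). Rpa2, a subunit of the single-strand binding protein RPA, had 17.4 ± 2.04 and 21.1 ± 2.53 CPM, and its groups overlapped (95% interval of the log2 fold change -0.05 to 0.61).

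All 5 genes of nucleotide supply rose, with a median log2 fold change of 1.11. Without knockout 2 or control 3 only Tk1 rose, without knockout 3 it was 2 genes, and without control 1 or knockout 1 it was 3. Rrm1 and Rrm2 encode the subunits of ribonucleotide reductase, which makes deoxyribonucleotides. Rrm1 stood at 56.2, 82.8 and 61.05 CPM in controls 1, 2 and 3 and 118, 143 and 122 CPM in knockouts 1, 2 and 3. The groups did not overlap, and control 2 was the highest control. Rrm1 rose (a log2 fold change of 0.94 with SE 0.17 and an edgeR adjusted p of 0.0135), and Rrm2 rose from 27.9 ± 6.85 to 60.2 ± 9.47 CPM (a log2 fold change of 1.11 with SE 0.21 and an edgeR adjusted p of 0.0159). The Rrm1 call was lost without control 3 or knockout 2 (adjusted p by edgeR 0.0509 to 0.0591, log2 fold change 0.85 to 0.87). For Rrm2 it was lost without control 3, knockout 2 or knockout 3 (adjusted p by edgeR 0.0609 to 0.0658, log2 fold change 1.01 to 1.10).

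Tk1, the thymidine kinase of the salvage pathway, stood at 13.5, 10.7 and 13.2 CPM in controls 1, 2 and 3 and 28.1, 36.99 and 30.7 CPM in knockouts 1, 2 and 3. Here control 2 was the lowest control, and each knockout was at least at 28.1 CPM. Tk1 rose (a log2 fold change of 1.36 with SE 0.15 and an edgeR adjusted p of 0.00365) in every alternative. Tyms, which makes thymidylate, rose from 10.7 ± 4.36 to 26.4 ± 2.79 CPM (a log2 fold change of 1.31 with SE 0.29 and an edgeR adjusted p of 0.0258). Control 2, at 15.7 CPM, was well above controls 1 and 3, at 8.32 and 7.95 CPM, and leaving it out gave a log2 fold change of 1.66. Its call was lost without any single library other than control 2 (adjusted p by edgeR 0.0712 to 0.0964, log2 fold change 1.13 to 1.40). Dut, the dUTPase that keeps uracil out of DNA, rose from 15.5 ± 2.46 to 22.2 ± 1.59 CPM (a log2 fold change of 0.52 with SE 0.14 and an edgeR adjusted p of 0.0407). This was the smallest log2 fold change of the 32, and the call was lost without any single library other than control 2 (adjusted p by edgeR 0.0961 to 0.137, log2 fold change 0.44 to 0.56). The Dut call was also lost with a term for sex (edgeR adjusted p = 0.0567), with no filter on low counts (edgeR adjusted p = 0.0551) and with a block for the replicate number (edgeR adjusted p = 0.0527).

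The genes that rebuild chromatin behind the fork, Chaf1a, Chaf1b and Uhrf1, all rose, with a median log2 fold change of 1.01. Uhrf1 encodes the protein that brings the DNA methyltransferase DNMT1 to newly copied DNA. It stood at 20.6, 20.7 and 19.1 CPM in controls 1, 2 and 3 and 43.3, 50.5 and 48.96 CPM in knockouts 1, 2 and 3. The controls lay within 2 CPM of each other and far below the knockouts. Uhrf1 rose (a log2 fold change of 1.24 with SE 0.09 and an edgeR adjusted p of 0.00131), the smallest adjusted p of the 44 genes. Of its 50-base sequences 15.4% occur in other annotated transcripts, chiefly Gm5648. CHAF1A and CHAF1B are subunits of the complex that places new histones. Chaf1b rose from 7.16 ± 0.773 to 14.4 ± 0.813 CPM (a log2 fold change of 1.01 with SE 0.12 and an edgeR adjusted p of 0.00482). Chaf1a rose from 16.04 ± 0.797 to 24 ± 2.85 CPM (a log2 fold change of 0.58 with SE 0.11 and an edgeR adjusted p of 0.01596), a call lost without control 1, control 3 or knockout 3 (adjusted p by edgeR 0.0525 to 0.0612, log2 fold change 0.53 to 0.62). Exons of Ubxn6 on the opposite strand cover 52.5% of those of Chaf1a, and Ubxn6 did not pass (log2 fold change -0.12).

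All 3 genes of fork checkpoint and repair rose, with a median log2 fold change of 0.99. Claspin, encoded by Clspn, carries the signal from stalled forks to the kinase CHK1. Clspn stood at 8.32, 10.3 and 10.7 CPM in controls 1, 2 and 3 and 20.96, 24.2 and 23.9 CPM in knockouts 1, 2 and 3. Knockouts and controls were well apart. Clspn rose (a log2 fold change of 1.23 with SE 0.13 and an edgeR adjusted p of 0.00342). Brca1, a gene of homologous recombination that also protects stalled forks, rose from 7.07 ± 0.379 to 14.1 ± 0.752 CPM (a log2 fold change of 0.99 with SE 0.10 and an edgeR adjusted p of 0.00338). Blm, a helicase gene of the same process, rose from 6.12 ± 1.26 to 11.5 ± 0.982 CPM (a log2 fold change of 0.91 with SE 0.18 and an edgeR adjusted p of 0.0185), a call lost without any single library other than control 2 (adjusted p by edgeR 0.0565 to 0.0794, log2 fold change 0.80 to 0.97).

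Further genes of the same processes, taken from lists of named genes, moved to different extents. Over all tested genes, 13.1% rose and 11.7% fell. Of 34 other replication genes, 16 rose and 0 fell, with an unadjusted p under 0.05 in 20 that were higher and 1 that was lower, 0 lower by DESeq2 or limma voom, and a median log2 fold change of 0.41. Rpa1, the large subunit of RPA and the gene of this list with the highest CPM, rose from 73.9 ± 3.98 to 115 ± 7.18 CPM (a log2 fold change of 0.64 with SE 0.07 and an edgeR adjusted p of 0.00396). Dscc1, a subunit of an alternative clamp loader, rose from 0.739 ± 0.173 to 2.28 ± 0.1996 CPM (a log2 fold change of 1.62 with SE 0.24 and an edgeR adjusted p of 0.00806). Of 30 other S-phase genes, 22 rose and 1 fell, with a median of 0.81. Pclaf, whose product binds PCNA, rose from 7.77 ± 0.662 to 33.3 ± 2.67 CPM (a log2 fold change of 2.10 with SE 0.11 and an edgeR adjusted p of 6.232e-04), and the maintenance methyltransferase gene Dnmt1 rose from 54.1 ± 3.01 to 106 ± 6.99 CPM (a log2 fold change of 0.97 with SE 0.07 and an edgeR adjusted p of 0.00163). The gene that fell was Cdc25a, a phosphatase that activates CDK2 (33.8 ± 0.675 to 26.2 ± 1.13 CPM, a log2 fold change of -0.37 with SE 0.07 and an edgeR adjusted p of 0.0139), named after its value was seen. Its call was lost without control 1, control 3, knockout 2 or knockout 3 (adjusted p by edgeR up to 0.0616). Without control 2, 19 other replication genes rose and 1 fell, and 23 other S-phase genes rose and 4 fell. In that fit 25.5% of all tested genes rose and 24.8% fell. Leaving out any other single library left 6 to 9 and 15 to 20 that rose. Over all tested genes it left 803 to 998 that rose, against 1816 with all 6 libraries.

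Mitosis genes rose in all 25 cases, where 13.1% of all tested genes rose, with a median log2 fold change of 1.51. Top2a, the topoisomerase gene with the highest CPM in the list, rose from 53.1 ± 5.29 to 158 ± 13.7 CPM (a log2 fold change of 1.58 with SE 0.10 and an edgeR adjusted p of 0.001196). Bub1, a spindle checkpoint kinase gene, rose from 10.4 ± 0.707 to 41.6 ± 5.08 CPM (a log2 fold change of 2.00 with SE 0.12 and an edgeR adjusted p of 9.906e-04). Without any single library, 24 or 25 of the 25 rose, beside 803 to 3617 of the 14178 to 14309 genes tested. The ratio of the summed mitosis list to the summed 44 replication genes was 0.521, 0.636 and 0.5196 in controls 1, 2 and 3 and 0.943, 0.941 and 0.955 in knockouts 1, 2 and 3. Each knockout had a higher ratio than each control, and control 2 the highest ratio of the controls.

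Genes of the RB, E2F and DREAM regulators rose in 8 of 18 cases and fell in 0, against 13.1% and 11.7% of all tested genes. There was 1 lower at an unadjusted p under 0.05 and 1 lower by DESeq2. The median log2 fold change was 0.39. Rbbp4, a histone-binding subunit of DREAM and the gene with the highest CPM here, rose from 144 ± 4.03 to 210.5 ± 10.1 CPM (a log2 fold change of 0.55 with SE 0.06 and an edgeR adjusted p of 0.00392). Rb1, encoding the retinoblastoma protein that restrains E2F, rose from 46.8 ± 13.1 to 132 ± 6.24 CPM (a log2 fold change of 1.49 with SE 0.20 and an edgeR adjusted p of 0.00611). The others that rose were Tfdp1, Rbl1, Rbl2, Lin54, Foxm1 and Mybl2. Mybl2 is also in the list of other S-phase genes and is counted among those that rose there. Exons of opposite-strand genes cover 18.05% of those of Rbbp4 (Gm26722 and Sync) and 14.9% of those of Rb1 (Lpar6 and Rcbtb2). Without control 2, 9 of the 18 rose and 1 fell, against 25.5% and 24.8% of all tested genes. Leaving out any other library gave 4 to 5 that rose. Over all tested genes it gave 803 to 998 that rose, against 1816 with all 6 libraries.

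Of 21 nucleotide synthesis genes outside the 44, 5 rose and 4 fell (against 13.1% and 11.7% of all tested genes), with a median log2 fold change of 0.01. Dtymk, Shmt1, Samhd1 and Tk2 were among those that rose, and Rrm2b, Dctd, Impdh1 and Mthfd2 fell, named because of the small counts after their values were seen. Ctps, a CTP synthase gene with the highest CPM of the list, had 326 ± 97.2 in controls and 549.9 ± 26.9 CPM in knockouts and did not pass (a log2 fold change of 0.75 with SE 0.23 and an edgeR adjusted p of 0.0666). Control 2, at 214 CPM, was the lowest library. Dctd, a deaminase gene of the thymidylate pathway, fell from 30.8 ± 9.82 to 11.7 ± 1.71 CPM (a log2 fold change of -1.39 with SE 0.28 and an edgeR adjusted p of 0.0185), a call lost without any single library other than control 2 (adjusted p by edgeR up to 0.0831). Leaving out control 2 gave 9 that rose and 6 that fell (against 25.5% and 24.8% of all tested genes), and leaving out any other library 0 to 2 and 1 to 3.

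Markers of cell types differed between the groups beside the replication genes. Of all tested genes 13.1% rose and 11.7% fell. Of the 10 endothelial markers 9 fell, among them Pecam1 from 2927 ± 1332 to 278 ± 85.4 CPM and Cdh5 from 3985 ± 1460 to 1270 ± 153 CPM, and Eng, at 1418 ± 722 and 1427 ± 70.1 CPM, did not pass (log2 fold change 0.01). Without any single library other than control 2, 4 to 6 fell, and without control 2 all 10 fell. Of 9 tested fibroblast markers 1 rose, Pdgfra, from 5.23 ± 0.912 to 15.5 ± 1.52 CPM (a log2 fold change of 1.57 with SE 0.17 and an edgeR adjusted p of 0.003505), and of 10 pericyte and smooth muscle markers 1 fell, Abcc9, from 3.64 ± 2.82 to 0.481 ± 0.208 CPM (a log2 fold change of -2.89 with SE 0.75 and an edgeR adjusted p of 0.0398). The Abcc9 call was lost without control 3 or any 1 knockout (adjusted p by edgeR up to 0.142). Most of the fibroblast sum in the knockouts was the proteoglycan gene Dcn, at 3.95, 317 and 6.96 CPM in the controls and 1421, 2110 and 1343 CPM in the knockouts. Col1a1, a defining collagen gene of fibroblasts, stood at 214, 5489 and 628 CPM in the controls and 235, 104 and 110.4 CPM in the knockouts. Summed leukocyte and microglia markers stood at 3.003, 4.41 and 4.38 CPM in controls 1, 2 and 3 and 3.08, 2.06 and 3.06 CPM in knockouts 1, 2 and 3, with Tyrobp and C1qa at 0 counts in all libraries. Neural markers summed to 17.1, 70.6 and 23.7 CPM in controls 1, 2 and 3 and 66.2, 84.4 and 57.2 CPM in knockouts 1, 2 and 3, of which Tubb3 made up most, and 1 of 4 tested rose (Mbp). Epithelial markers summed to at most 10.6 CPM, and the 1 tested, Krt18, rose (a log2 fold change of 1.78 with SE 0.48 and an edgeR adjusted p of 0.04404), a call lost without any single library other than control 2 (adjusted p by edgeR up to 0.137). The summed replication genes were higher in each knockout than in each control. Without control 2, where 25.5% of all tested genes rose and 24.8% fell, 4 fibroblast markers rose and 1 fell. Their median log2 fold change was 0.61 in place of -1.70 with all libraries. Of the pericyte and smooth muscle markers 3 rose and 1 fell, with a median of 0.90 in place of -0.37. Among the fibroblast markers Dcn rose (log2 fold change 8.19, adjusted p by edgeR 7.794e-06) and Col1a1 fell (log2 fold change -1.52, adjusted p by edgeR 0.0406). In the same 5 libraries 3 of the 4 tested neural markers rose, Tubb3 among them (log2 fold change 1.84, adjusted p by edgeR 4.684e-04), with a median of 2.72 in place of 0.97. The part of cell type markers in the rise was not tested.

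**Figure D5:**
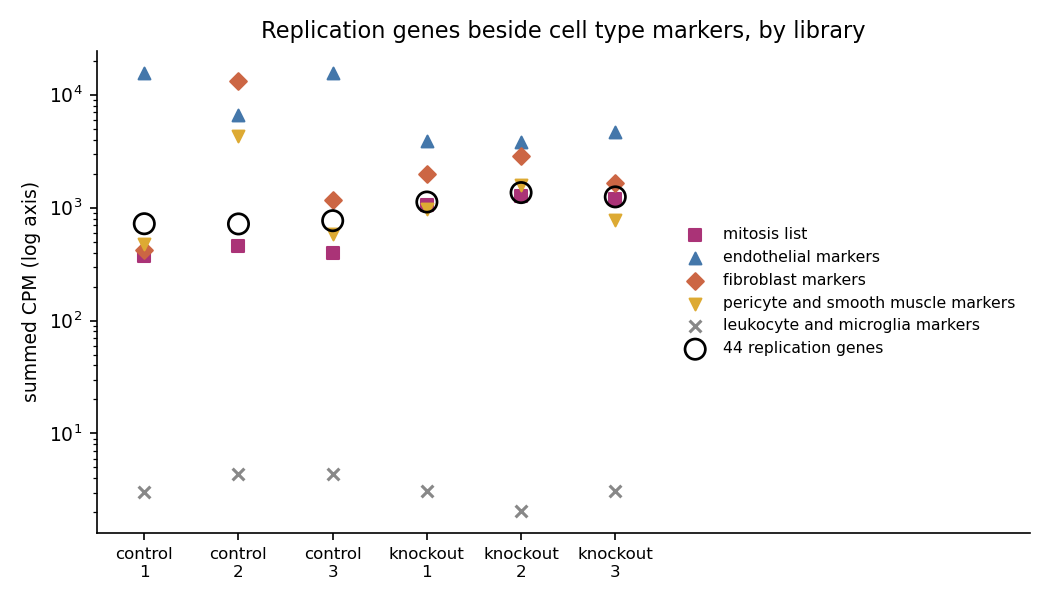
Summed CPM (logarithmic vertical axis) in each library of the 44 replication genes (rings), 25 mitosis genes and markers of 4 cell types. The replication sum lies at 717 to 766 CPM in the 3 controls and at 1122 to 1359 CPM in knockouts. Fibroblast markers range from 422 to 13210 CPM in the controls.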

How the data were processed

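Polyadenylated RNA of 6 libraries (3 control, 3 knockout, grouped by sample title) was sequenced. The submitters' processing notes name STAR 2.7.6a, FastQC 0.11.5 and the build GRCm38. The authors deposited raw counts per Ensembl gene. The counting program, its strand setting and which of the 2 TruSeq kits named in the labels (RNA v2 or Stranded mRNA) made which library are not stated in these sources, so reads of overlapping genes may have been merged. The table held 0 rows without a gene and 0 columns of other samples.

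Symbols, exon lengths and overlaps came from GENCODE M21 (GRCm38), which matched 52489 of 52636 identifiers. Counts were compared with edgeR 4.0.16 (R 4.3.3; filterByExpr by group, TMM scaling, quasi-likelihood F test, two-sided, no covariate) over 13901 genes with Benjamini-Hochberg adjustment, with calls made below an adjusted p of 0.05. Standard errors are the log2 fold change over the square root of F, and 95% intervals use the t quantile at the test's degrees of freedom. CPM used TMM-scaled library sizes and SDs are over n = 3 libraries. Levels per kilobase divide CPM by the length of all annotated exons of a gene merged. The test was checked on simulated counts. Alternatives were RLE scaling, library size only, DESeq2 1.42.0, limma 3.58.1 voom, no filter, a minimum of 1 CPM in 3 libraries, a block for the replicate number, a term for sex (read from Xist and Y-linked genes), an adjusted p under 0.01 for the counts, and each library left out, 14 per gene without the stricter threshold. The 44 genes and the other lists were chosen with earlier results of these data known. In each role group the gene with the highest mean CPM, the gene with the largest fold change and any that differs in direction are given in every library, as are the E2F and cyclin E genes, and of each other list the gene with the highest mean CPM and the called gene with the largest fold change. Every pair of libraries differed by more than sampling noise (lowest chi-square per degree of freedom 6.24).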

Additional observations from a re-analysis of the deposited data

How the results depend on the processing

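Of the 44 genes, 32 rose; the number was 15 at an adjusted p under 0.01, 23 with the replicate number as a block and 17 to 34 when 1 library was left out, and 0 fell in each case. The 9 calls lost with the block were those of Orc1, Cdc6, Cdt1, Mcm2, Mcm5, Gins2, Pole2, Rfc4 and Dut (edgeR adjusted p = 0.0527 to 0.0992). Over all genes, 524 were lower and 732 higher at an adjusted p under 0.01, 806 and 1038 with the block, and 548 to 3511 and 803 to 3617 when 1 library was left out. With an adjusted p under 0.01, 6 other replication genes rose, 14 other S-phase genes rose and 0 fell, 0 nucleotide synthesis genes rose and 1 fell, 3 RB, E2F and DREAM regulators rose, and 0 G1 gate genes fell. With the block these numbers were 7 other replication genes that rose, 0 other S-phase genes that fell, 2 nucleotide synthesis genes that rose, 4 RB, E2F and DREAM regulators that rose and 1 G1 gate gene that fell. DESeq2 called 1 RB, E2F and DREAM regulator lower. When 1 library was left out, other replication genes fell in 0 to 1 and rose in 6 to 19 cases, other S-phase genes fell in 0 to 4 and rose in 15 to 23, nucleotide synthesis genes fell in 1 to 6 and rose in 0 to 9, regulators fell in 0 to 1 and rose in 4 to 9, mitosis genes rose in 24 to 25, and G1 gate genes fell in 0 to 4 and rose in 6 to 7. No log2 fold change of a called gene changed sign; the cause of the lost calls was not tested. Deviations of same-numbered libraries from their group means correlated at -0.19, 0.19 and 0.32. With 3 libraries a group, these values cannot decide whether replicate numbers pair the libraries. With 3 libraries a group the spread is poorly known, and leaving out control 2 gave the highest number of calls both among the 44 genes and over all genes. Genes at few counts, such as Fen1 and Orc1, are the least precise.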

Other observations

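G1 gate genes act in the decision of a cell to enter S phase. Of 15 tested genes 6 rose (Ccnd3, Cdkn1b, Cdkn1c, Cdkn2c, Cdkn2d and Ccng2) and 3 fell (Ccnd2, Cdkn1a and Cdkn2b), against 13.1% and 11.7% of all tested genes, with a median log2 fold change of 0.19. Ccnd2, a D-type cyclin gene with the highest CPM of the list, stood at 998, 1307 and 1140 CPM in controls 1, 2 and 3 and 793, 572 and 642 CPM in knockouts 1, 2 and 3. Each knockout lay below each control, and Ccnd2 fell (a log2 fold change of -0.78 with SE 0.17 and an edgeR adjusted p of 0.0229), a call lost without control 3, knockout 2 or knockout 3 (adjusted p by edgeR up to 0.0923). Cdkn1c, encoding the CDK inhibitor p57, stood at 0.738, 0.871 and 0.822 CPM in controls 1, 2 and 3 and 9.403, 6.81 and 5.35 CPM in knockouts 1, 2 and 3. It rose in every case without a single library (a log2 fold change of 3.14 with SE 0.27 and an edgeR adjusted p of 0.00208, and at most 0.0156 with 1 library left out). Exons of the opposite-strand gene Gm44732 cover 30.65% of those of Cdkn1c, so reads could have been lost or shared there. Cdkn1a, encoding p21, fell with a log2 fold change of -0.29 (edgeR adjusted p = 0.0302) and Cdkn2b, encoding p15, from 94.6 ± 26.97 to 40.01 ± 6.62 CPM (a log2 fold change of -1.24 with SE 0.25 and an edgeR adjusted p of 0.02002). Both calls were lost without any single library other than control 2 (adjusted p by edgeR up to 0.126 and 0.0827). Cyclin D and inhibitor genes other than Ccnd2 and Cdkn1c were named after their values were seen. Without control 2, 7 rose and 4 fell, against 25.5% and 24.8% of all tested genes.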
